A study of Mus musculus with 2 samples.

Results

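MHC class II high macrophages are the 80 cells with most MHC class II RNA among 247 macrophages, in a set of 1426 sorted heart cells. Macrophages were the cells whose mean deposited log value of Lyz2, C1qa, C1qb and Fcer1g was 1.5 or more and exceeded that of the fibroblast genes Dcn, Col1a2, Lum and Col3a1. Members were chosen by the mean z-score of H2-Aa, H2-Ab1, H2-Eb1 and Cd74 over all macrophages, and the 80 highest were taken. These 4 genes chose the cells, so their values are given as a description and without a test.

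The cells came from hearts of C57BL/6 mice aged 20 to 22 months. The mice carried p16-FDR, a reporter of the senescence gene Cdkn2a that holds a FLP recombinase and a diphtheria toxin receptor fused to the red fluorescent protein mCherry. Every cell, member or not, had been sorted as mCherry-positive, and no mCherry-negative, young or treated group was used here. The 2 libraries, called Heart1 and Heart2 after the cell names, held 266 and 1160 cells, were made with droplet 3' chemistry that counts unique molecular identifiers (UMIs), and shared 0 cell barcodes. The labels do not say whether the 2 libraries are separate animals. The p-values below test members against other macrophages. The spread behind them is how that difference varies between these 2 libraries, pooled mostly over genes, and it may be technical. They therefore speak only to these libraries.

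MHC class II molecules present peptides from engulfed material to CD4 T cells. Their alpha and beta chains assemble with the invariant chain Cd74, whose remnant is then exchanged for peptide with the help of the H2-DM proteins, and transcription of the whole group depends on the coactivator Ciita. C57BL/6 mice lack a working H2-Ea gene. In the heart, macrophages with Ccr2 and much class II are known as replenished from blood monocytes, while those with Timd4, Lyve1 and Folr2 are known as long-lived residents.

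Heart1 gave 12 members among 37 macrophages and Heart2 gave 68 among 210, which is 32.4% of the macrophages in each (exact 95% binomial intervals 18.01 to 49.8% and 26.1 to 39.2%, counting error only). The rule took 80 of 247 macrophages, so the share over both libraries was set in advance. Only the split between the libraries was free, and these values do not estimate how common such cells are. The other macrophages numbered 25 and 142. All 8 further macrophage markers (Csf1r, Adgre1, Fcgr1, Mertk, Cd68, C1qc, Ms4a7 and Aif1) were detected in macrophages, and together they reached 9080 CPM in members and 8010 CPM in other macrophages of Heart1, and 10100 and 10700 CPM in Heart2. Mertk, a receptor for engulfing dead cells, had 0 UMIs in members of Heart1 and 17 in the others, and 20 and 92 UMIs in Heart2. CPM here is UMIs of a gene scaled to the summed UMIs of a group, without the 4 class II genes.

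The ranking had no gap where it was divided. The mean z-score was 0.842 for the last member and 0.829 for the first cell outside, against medians of 1.085 in members and -0.77 in the other macrophages. The class is therefore a range of a continuous measure, and taking 60 or 100 cells changed some results. These are named beside them or in the section on processing.

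**Figure D1:**
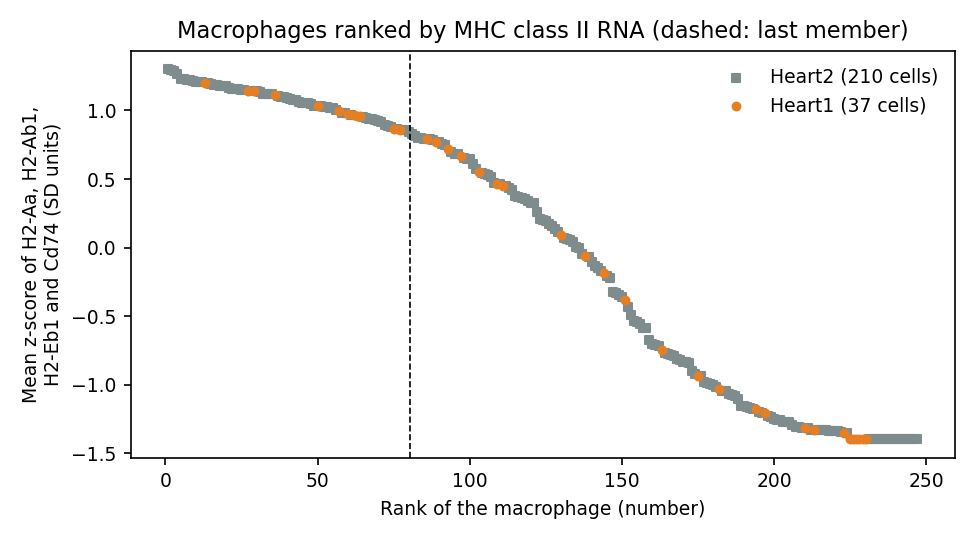
Each point is 1 macrophage, ordered by rank (x axis) and plotted by its mean z-score of the 4 class II genes in SD units (y axis), with squares for Heart2 and circles for Heart1. Members lie left of the dashed line, where the values run on from 0.842 to 0.829 with no step.

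The members held abundant class II RNA in both libraries. H2-Aa had a lowest, median and highest deposited value of 4.42, 4.98 and 5.49 in members of Heart1 and of 4.42, 5.12 and 5.68 in Heart2, in natural log units. Its median in the other macrophages was 0.0 in Heart1 and 1.09 in Heart2, with highest values of 4.61 and 4.88. The other macrophages thus reached into the lower range of the members for this gene.

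Cd74, the invariant chain, ran from 5.57 to 6.35 in members of Heart1 (median 6.10) and from 5.58 to 6.78 in Heart2 (median 6.24). It had medians of 3.15 and 2.92 in the other macrophages. Together the 4 genes took a median of 8.76% of the UMIs of a member in Heart1 and 10.7% in Heart2, against 0.292% and 0.265% in the other macrophages. No member was at 0 for any of the 4 genes.

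Members were shallower cells. Their median was 5670 UMIs and 1839 genes per cell in Heart1 and 7146 UMIs and 2335.5 genes in Heart2, while the other macrophages had 10149 and 10693.5 UMIs and 2937 and 3211 genes. Across macrophages, mean z and UMIs per cell had a Spearman rho of -0.639 in Heart1 (37 cells) and -0.529 in Heart2 (210 cells), as a description over cells that share a library. Depth was therefore different beside every result below, and its part in them was not tested. After thinning each cell to 3000 UMIs all 39 genes called below were called again. That fit called 150 genes in all, so being called again was a weaker demand. Thinning also keeps each gene's expected share of a cell's UMIs, so it cannot separate depth from the kind of cell.

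For the comparison, UMIs were summed per library and group, and members were set against other macrophages within each library with limma, on log2(CPM + 5). Of 7797 genes tested, 9 were higher in members (0.115%) and 30 were lower (0.385%) at a Benjamini-Hochberg adjusted p below 0.05, 39 in all (0.5%). Without adjustment 245 were higher and 476 lower at p below 0.05. With 1 residual degree of freedom and 7.83 prior ones, the standard errors rest mostly on the spread pooled over genes. Without library as a block, 2 genes were called higher, H2-DMa and H2-DMb1, and 0 lower (limma, adjusted p). In all, the number of calls ran from 2 to 286 over the settings tried, and all 39 genes kept their direction in each setting fitted.

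**Figure D2:**
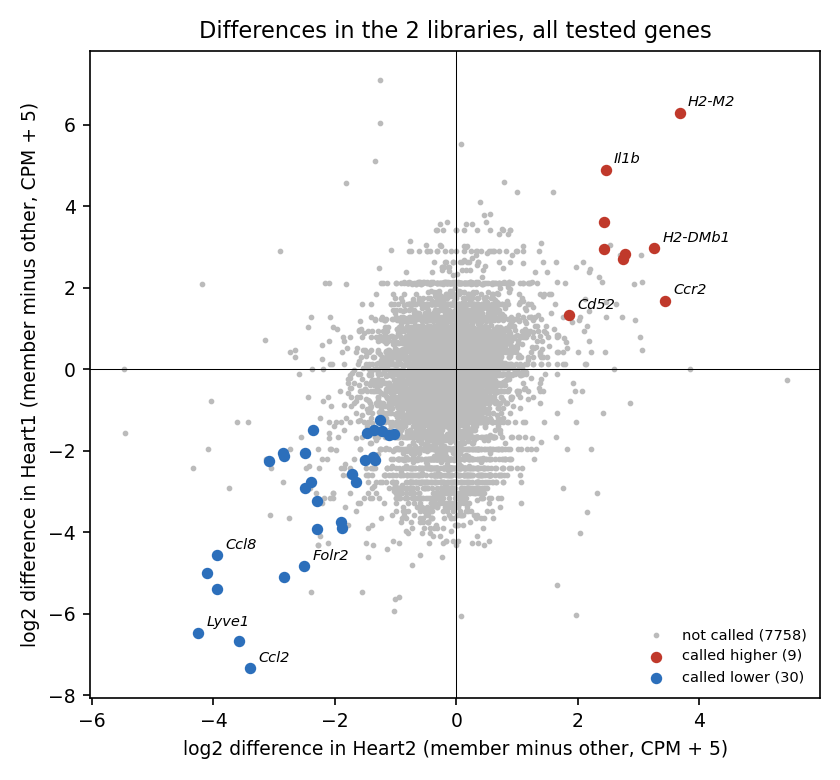
Each point is 1 of 7797 tested genes, with its difference between members and other macrophages on the log2(CPM + 5) scale in Heart2 (x axis) and Heart1 (y axis). Red points are the 9 genes called higher and blue points the 30 called lower, and each called gene lies on the same side of 0 in both libraries.

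Class II genes outside the rule were higher in members, and H2-DMa and H2-DMb1 were called in each of the 19 other settings fitted. Several of these settings repeated the main fit or each other, so counts over the 19 are not counts of separate checks. H2-DMa and H2-DMb1 encode the alpha and a beta chain of H2-DM, the peptide loading factor. H2-DMa stood at 1540 CPM in members and 232 CPM in other macrophages of Heart1, and at 1520 and 223.5 CPM in Heart2. H2-DMb1 stood at 1378 and 170 CPM in Heart1 and at 1537 and 157 CPM in Heart2. The sums of the 2 groups did not overlap for either gene, and the libraries gave like values. The log2 differences were 2.72 ± 0.21 (SE, limma adjusted p = 0.00203) for H2-DMa and 3.12 ± 0.23 (adjusted p = 0.00203) for H2-DMb1.

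Ciita, the class II coactivator, was present at lower levels and followed the same order. It stood at 211 CPM in members and 25.4 CPM in other macrophages of Heart1 (13 and 7 UMIs), and at 172 and 20.8 CPM in Heart2 (82 and 32 UMIs). The difference was 2.80 ± 0.38 (SE, limma adjusted p = 0.0200). A Ciita UMI was found in 8 of 12 and 44 of 68 members, against 5 of 25 and 20 of 142 other macrophages. After thinning to 3000 UMIs the shares were 41.7% and 36.8% of members against 8.0% and 5.63%, and fibroblasts, which should lack the gene, had one in 0.971% and 0.213% of unthinned cells at median depths of 11882.5 and 8772 UMIs.

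H2-DMb2, the second H2-DM beta gene, was rare, with 1 and 18 UMIs in members and 0 and 1 in other macrophages. In Heart2 that is a ratio of 58.1 with a counting interval of 9.17 to 2420, and the fitted difference of 2.50 ± 1.24 did not pass (limma adjusted p = 0.584). H2-Oa and H2-Ob, subunits of the H2-DM inhibitor H2-O, had 5 UMIs each in members of Heart2 and 0 in members of Heart1. Both fell under the minimum of 10 CPM and were not tested.

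The list of class II pathway genes held 17 tested genes, of which 3 passed as higher, where 0.115% of all tested genes did, and 0 as lower. The list's median difference was 0.49 against -0.12 over all tested genes. The DNA-binding partners of Ciita did not pass: Rfx5 differed by 0.97 ± 0.82, Rfxap by -0.49 ± 0.57 and Rfxank by 0.55 ± 0.70 (SE). Among the proteases that process the invariant chain, Ctss (cathepsin S) stood at 2903 and 2283 CPM in Heart1 and at 3225 and 1581 CPM in Heart2, a difference of 0.69 ± 0.20 that did not pass (limma adjusted p = 0.278) and was called in 5 of 19 other settings. Ctsl (cathepsin L) pointed the other way, with 162 and 732 CPM in Heart1 and 245 and 442 CPM in Heart2, and did not pass either (-1.49 ± 0.33, adjusted p = 0.133). It was called in 6 of 19 other settings and ran from -2.07 to -0.043 over them.

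**Figure D3:**
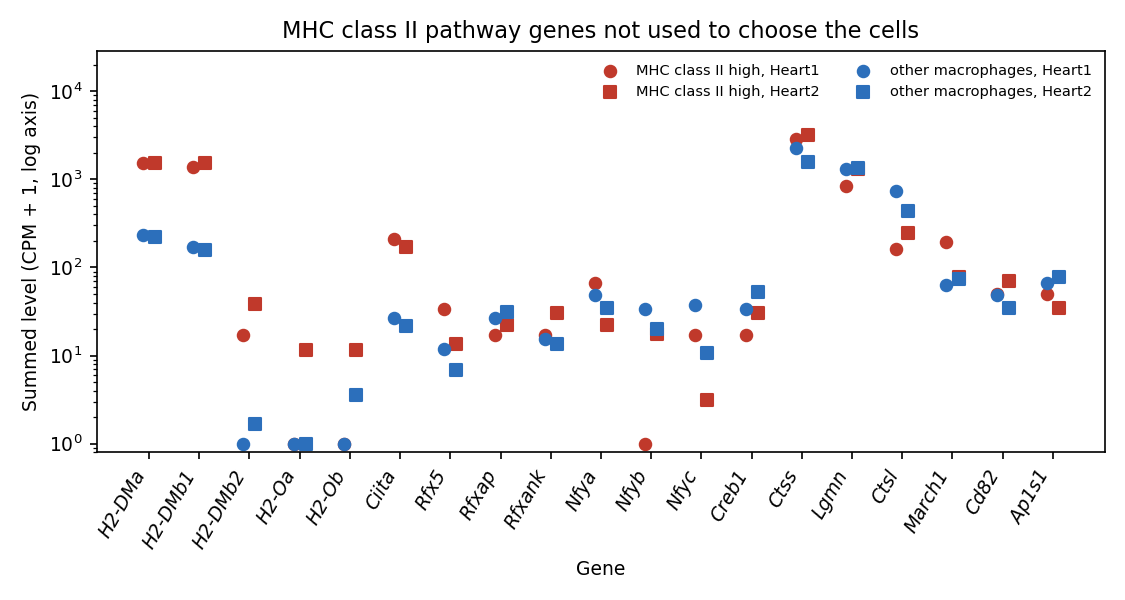
Summed CPM + 1 on a log axis (y axis) for class II pathway genes that did not choose the cells (x axis), with red for members, blue for other macrophages, circles for Heart1 and squares for Heart2. Red lies above blue in both libraries for the called genes H2-DMa, H2-DMb1 and Ciita, such as 1540 against 232 CPM for H2-DMa in Heart1.

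The promoters of these genes are shown because most class II genes, those that chose the cells and those that did not, share a sequence arrangement. It was searched as AAC, the core of the X box, followed after 25 to 28 bases by ATTGG, the Y box, on both strands of RefSeq promoter windows of 300 bases (GRCm38.p6, 250 before and 50 after each start). The allowed gap was set after looking at these promoters. Of 8 class II genes with a window, 7 held the pair, against 2.49% of all 32851 windows. The pair was in neither of the 2 H2-DMa windows, and 1 of 26 other called genes with a window held it. ATTGG or its complement alone was in 37.4% of all windows, and a match is only a description of letters. Below, AAC and ATTGG are in capitals, for H2-Aa at chr17:34287855-34287914 on the minus strand and, on the plus strand, H2-Eb1 at chr17:34305766-34305824, H2-DMb2 at chr17:34145116-34145175 and H2-Ob at chr17:34238808-34238864.
H2-Aa: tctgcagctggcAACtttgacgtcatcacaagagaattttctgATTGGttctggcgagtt
H2-Eb1: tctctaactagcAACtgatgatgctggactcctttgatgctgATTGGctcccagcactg
H2-DMb2: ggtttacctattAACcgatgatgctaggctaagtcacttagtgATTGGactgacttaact
H2-Ob: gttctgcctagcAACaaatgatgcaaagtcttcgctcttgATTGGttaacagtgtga

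The distance between both motifs was 28 bases in H2-Aa and H2-DMb2, 27 in H2-Eb1 and 25 in H2-Ob. H2-Eb2, H2-DMb1 and H2-Oa held the pair too. Most of these genes lie close together on chromosome 17 (GRCm38): H2-DMa at 34119541 to 34139101, H2-DMb1 at 34153072 to 34160230 and H2-Aa at 34282744 to 34287823. Ciita lies on chromosome 16 (10480059 to 10528418).

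Of 17 tested genes on the monocyte and Ccr2 list, Ccr2 and Cd52 passed as higher, 0 as lower, and 15 did not pass, where 0.115% of all tested genes were called higher. At an unadjusted p below 0.05, 5 were higher and 1 lower by limma. Ccr2, the receptor through which monocytes leave the marrow toward Ccl2, stood at 373 CPM in members and 112 CPM in other macrophages of Heart1, and at 382 and 30.5 CPM in Heart2. The difference was 2.57 ± 0.42 (SE, limma adjusted p = 0.0420). With macrophages holding any fibroblast UMI left out before the ranking, an alternative chosen after seeing the data, it was 1.21 (adjusted p = 0.100).

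A Ccr2 UMI was found in 5 of 12 members and 6 of 25 other macrophages of Heart1, and in 30 of 68 and 14 of 142 in Heart2. The exact intervals of these shares were 15.2 to 72.3% and 9.36 to 45.1% in Heart1, and 32.1 to 56.7% and 5.50 to 15.99% in Heart2. They cover counting error over cells that share a library, and are not a test. In fibroblasts the shares were 0.0% and 0.319%. Of the 23 Ccr2 UMIs in members of Heart1, 12 were in 1 cell, and of the 31 in other macrophages 21 were in 1 cell.

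Cd52, a small surface glycoprotein of leukocytes, was higher by 1.60 ± 0.22 (limma adjusted p = 0.0206). It stood at 1086 and 428 CPM in Heart1 and at 1466 and 401 CPM in Heart2. The blood monocyte markers Ly6c2, Plac8, Vcan, Hp and Ace were at 0 UMIs in members of both libraries. Ly6c2 had 26 and Plac8 18 UMIs in the others, all in Heart1, where the members held 67960 UMIs in total and the others 279127. The summed monocyte markers ran from 405 to 409 CPM in members, of which Ccr2 made 373 and 382, and from 36.4 to 326 CPM in the others.

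The remaining genes called higher were Plbd1, Clec4b1, Il1b and H2-M2. Plbd1, a phospholipase B-like protein, stood at 324 CPM against 21.8 in Heart1 and at 335.5 against 58.5 in Heart2, a difference of 3.02 ± 0.38 (limma adjusted p = 0.0147). Clec4b1, a C-type lectin receptor, stood at 146 against 14.5 CPM and at 176 against 28.6 CPM, a difference of 2.69 ± 0.40 (adjusted p = 0.0303). Both genes were spread over many members, with Plbd1 UMIs in 7 of 12 and 54 of 68 and Clec4b1 UMIs in 5 of 12 and 39 of 68.

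Il1b and H2-M2 rested on few cells. Il1b, the cytokine interleukin 1 beta, had 29 UMIs in 6 members of Heart1 and 38 in 9 members of Heart2, against 3 and 16 UMIs in the others, and differed by 3.68 ± 0.58 (limma adjusted p = 0.0359). With 60 members it was 1.70 (adjusted p = 0.0649). H2-M2, a nonclassical class I gene on chromosome 17, had 24 UMIs in 4 members of Heart1, 19 of them in 1 cell, and 36 in 11 members of Heart2, against 0 and 2 in the others. Per library that is at least 35.8-fold higher in Heart1, taking 3 counts as the floor, and a ratio of 58.1 in Heart2 with a counting interval of 15.0 to 498. The fitted value was 4.99 ± 0.69 (adjusted p = 0.0206), and 2.41 with 60 members. With only genes of 50 CPM or more tested, neither passed (adjusted p = 0.0795 for Il1b and 0.212 for H2-M2).

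Most resident macrophage genes were lower. Of 27 tested genes on the resident list, 13 passed as lower, where 0.385% of all tested genes did, and 0 passed as higher. On this list 22 genes were below 0 in both libraries, and 16 were at least 2-fold lower in both, as were 2.9% of all tested genes. Among those that were not below 0 in both, Cd163 and Vsig4 were higher in members of Heart1 and lower in those of Heart2. For Vsig4 the log2 differences were 1.03 and -2.44. The list's median difference was -1.77, against -0.12 over all 7797 genes, of which 2728 were below 0 in both. The resident genes together took a median of 0.673% of the UMIs of a member in Heart1 and 0.836% in Heart2, against 1.59% and 3.41% in the others, and the ranges overlapped (0.112 to 1.57% and 0.0775 to 4.0% in Heart1).

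Lyve1, the hyaluronan receptor of vessel-associated residents, had 0 UMIs in members of Heart1 and 120 in the others, and stood at 39.8 CPM against 847 CPM in Heart2. In Heart1 that is at least 8.94-fold lower, and the fitted difference was -5.35 ± 0.51 (limma adjusted p = 0.00309). Folr2, folate receptor beta, had 1 UMI against 164 in Heart1, and 270.5 CPM against 1565 CPM in Heart2. Its difference was -3.67 ± 0.47 (adjusted p = 0.0147). It had a UMI in 1 of 12 and 20 of 68 members, against 22 of 25 and 129 of 142 other macrophages. After thinning to 3000 UMIs a Folr2 UMI was left in 0 of 12 and 20.6% of members and in 76.0% and 85.9% of the others. With 100 members Lyve1 was -3.25 and Folr2 -2.42, and with macrophages holding any fibroblast UMI left out before ranking they were -2.72 and -2.04, all still called.

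Fcna, a ficolin, had 0 and 13 UMIs in members and 43 and 845 in the others, at least 3.2-fold lower in Heart1 (fitted -4.55 ± 0.43, limma adjusted p = 0.00309). F13a1, coagulation factor XIII subunit A, stood at 97.3 against 953 CPM in Heart1 and at 528 against 2616 CPM in Heart2 (-2.76 ± 0.26, limma adjusted p = 0.00309). Cbr2, Ltc4s, Ninj1, Gas6, Stab1, Fcgrt, Ccl8, Ccl24 and Pf4 were the other resident genes called lower. With macrophages holding any fibroblast UMI left out before ranking, Fcna was -2.56, Cbr2 -1.60, Ninj1 -1.64 and Gas6 -1.24, all still called. Timd4, a phosphatidylserine receptor of residents, had 1 and 23 UMIs in members and 14 and 322 in the others, and did not pass (-1.70 ± 0.42, adjusted p = 0.188). It was called in 4 of 19 other settings.

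**Figure D4:**
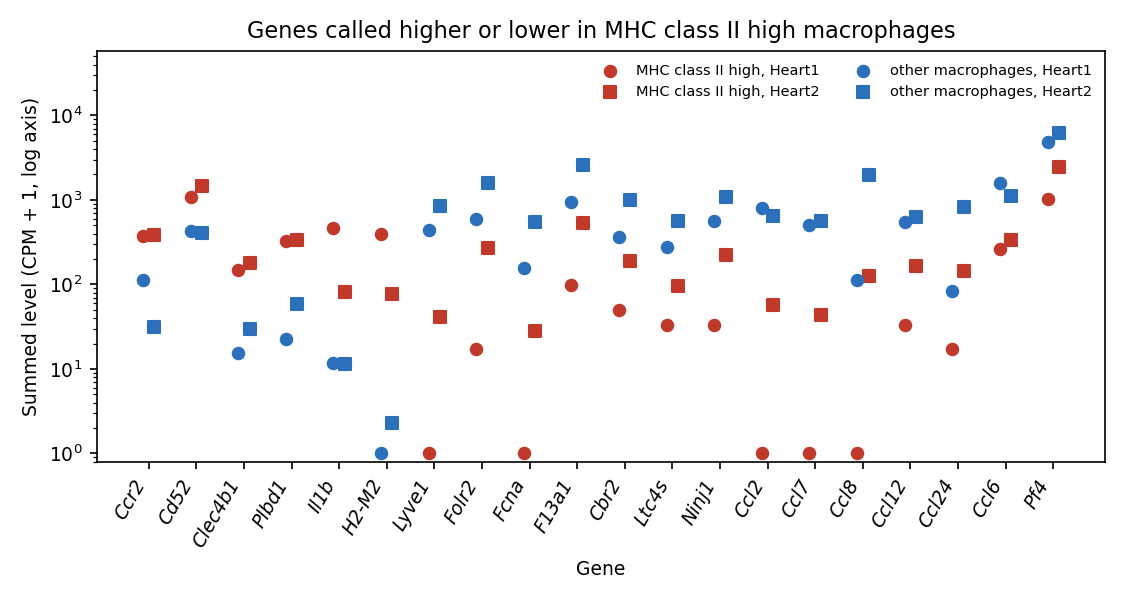
Summed CPM + 1 on a log axis (y axis) for 20 of the 39 called genes (x axis), coloured and marked by group and library as above. Members lie above the other macrophages from Ccr2 to H2-M2 and below them from Lyve1 to Pf4, and Lyve1, Fcna, Ccl2, Ccl7 and Ccl8 are at 0 in members of Heart1.

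Of 16 tested chemokine genes 7 passed as lower, against 0.385% of all genes, and 0 as higher by limma. At an unadjusted p below 0.05, 10 were lower and 2 higher. The monocyte attractants Ccl2, Ccl7, Ccl8 and Ccl12 lie close together on chromosome 11 and bind Ccr2 or related receptors. Ccl8 had 0 and 60 UMIs in members, 39 of the 60 in 1 cell, and 31 and 3070 UMIs in other macrophages. It was at least 2.31-fold lower in Heart1, with a fitted difference of -4.24 ± 0.35 (limma adjusted p = 0.00203). Ccl7 had 0 and 20 UMIs against 139 and 859, at least 10.4-fold lower in Heart1 (fitted -5.13 ± 0.63, adjusted p = 0.0126). Ccl12 stood at 32.4 against 547 CPM in Heart1 and at 166 against 626 CPM in Heart2 (-2.89 ± 0.43, adjusted p = 0.0303). With 100 members Ccl7 was -1.43 and Ccl12 -1.70, and with macrophages holding any fibroblast UMI left out before ranking Ccl7 was -1.34, Ccl8 -1.90 and Ccl12 -1.33, all still called. Ccl8, Ccl24 and Pf4 are on the resident list as well.

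Ccl2 depended on where the ranking was divided and on which macrophages were ranked. It had 0 and 27 UMIs in members and 222 and 988 in other macrophages, a difference of -5.37 ± 0.74 (limma adjusted p = 0.0206) and at least 16.5-fold lower in Heart1. With 100 members the difference was -0.36 (adjusted p = 0.856), and with macrophages holding any fibroblast UMI left out before ranking it was -0.73 (adjusted p = 0.425). Ccl24 behaved likewise, from -2.28 ± 0.33 (adjusted p = 0.0261) to -1.03 (adjusted p = 0.160) and -0.50 (adjusted p = 0.622). A further alternative left out macrophages with any UMI of the dendritic cell genes Zbtb46, Cd209a and Kmo before ranking. There Ccl2 was -0.90 and Ccl7 -2.08 (limma adjusted p = 0.0217 and 8.1e-10).

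Pf4, platelet factor 4, stood at 1022 against 4806 CPM in Heart1 and at 2460 against 6269 CPM in Heart2, and Ccl6 at 259 against 1566 CPM and at 331 against 1107 CPM. They differed by -1.79 ± 0.21 and -2.15 ± 0.25 (limma adjusted p = 0.0120 for both). With 100 members Pf4 was -1.03, still called.

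Further genes were lower outside these lists. Ctla2a, a cathepsin inhibitor, had 0 UMIs in members of both libraries and 56 and 111 in the others (limma adjusted p = 0.0235). Within each library that is at least 4.17-fold lower in Heart1 and 11.5-fold lower in Heart2. It did not pass with a pseudocount of 1 CPM (adjusted p = 0.119). Wfdc17 stood at 438 against 1939 CPM and at 254 against 1846 CPM (-2.49 ± 0.23, adjusted p = 0.00309). Cd36, a scavenger receptor for lipids, had 1 and 52 UMIs against 77 and 648 (-2.82 ± 0.44, adjusted p = 0.0350). With macrophages holding any UMI of the dendritic cell genes Zbtb46, Cd209a and Kmo left out before ranking it was -0.82 (adjusted p = 0.176). Cd36 and Lgals1 (galectin 1) were the 2 of 22 lipid-associated genes that passed, both as lower, and that list had a median of -1.24.

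The single gene of the type I interferon list that passed was Ifi27l2a, at 892 against 2555 CPM in Heart1 and 969 against 2277 CPM in Heart2 (-1.37 ± 0.18, limma adjusted p = 0.0184). The median of that list was -0.83 over 21 genes, and 16 were below 0 in both libraries. Isg15 (-1.72 ± 0.43, adjusted p = 0.199) and Ifit3 (-2.40 ± 0.50, adjusted p = 0.104) did not pass. The interferon gamma list, whose signal is a known inducer of Ciita, had 0 of 17 genes passing in either direction by limma and a median of 0.09, with 4 higher and 2 lower at an unadjusted p below 0.05.

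Costimulatory and checkpoint genes, the second signal for T cells, did not pass. Of 11 tested, 0 passed by limma and 0 had an unadjusted p below 0.05, and the median difference was 0.09. Cd86 stood at 146 against 109 CPM in Heart1 and at 170 against 160 CPM in Heart2. Cd40 had 0 and 9 UMIs and Cd80 had 0 and 11 UMIs in members, so differences in these were hard to detect at this depth. MHC class I genes gave 0 of 22 passing by limma, 3 higher at an unadjusted p below 0.05 and a median of 0.22. H2-K1 stood at 1378 against 917 CPM and at 1575 against 1199 CPM (0.49 ± 0.18, adjusted p = 0.455).

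General macrophage genes gave 0 of 24 passing by limma, with 5 higher and 3 lower at an unadjusted p below 0.05, and proliferation genes 0 of 16, with 0 higher and 5 lower. Adgre1, which encodes F4/80, stood at 519 against 522 CPM in Heart1 and at 614 against 609.5 CPM in Heart2, a difference of 0.00 ± 0.21.

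Dendritic cells also hold much class II RNA, so their markers were read beside these results. Of 11 tested dendritic cell genes 0 passed by limma, with 4 higher and 1 lower at an unadjusted p below 0.05, and Itgax, Batf3, Tnip3 and Napsa were at least 2-fold higher in both libraries, as were 1.18% of all tested genes. Summed over the list they reached 1780 CPM in members and 1330 CPM in others of Heart1, and 1920 and 1900 CPM in Heart2. Zbtb46, a defining transcription factor, had 0 and 2 UMIs in members. Cd209a had 53 UMIs in 2 members of Heart2, 52 of them in 1 cell, and 173 in 35 other macrophages. Flt3, Xcr1 and Clec9a had no values in the deposited data, and Ccr7 was not analysed here. Leaving out macrophages with at least 2 of Zbtb46, Cd209a and Kmo removed no member, and took the others of Heart2 from 142 to 130. Leaving out those with any UMI of these 3 genes, an alternative chosen after seeing the data, kept 12 and 63 of the members, and H2-DMa, H2-DMb1, Ciita and Ccr2 were called. The part of the wider dendritic list, Itgax, Batf3, Tnip3 and Napsa included, was not tested.

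RNA of other cell types was low and uneven. Cardiomyocyte genes summed to 1590 CPM in members of Heart1, with 74 of 98 UMIs in 1 cell, against 65.2 CPM in the others, and to 250 and 146 CPM in Heart2. Fibroblast markers summed to 227 and 217 CPM in Heart1 and to 331 and 928 CPM in Heart2. A UMI of Dcn, Col1a2, Lum or Col3a1 was in 1 of 12 and 22 of 68 members and in 4 of 25 and 47 of 142 others. With the members kept and those cells left out of both groups, all 39 genes were called and 97 genes were higher and 176 lower. Cd79a, Ms4a1 and Pax5 of B cells and 7 of 9 T and NK cell markers were at 0 in members. Cd79b, a chain of the B cell receptor complex, had 4 UMIs against 3 in Heart1 and 12 against 7 in Heart2 (1.90 ± 0.65, limma adjusted p = 0.403). The B cell markers summed to 535 and 265 CPM in Heart1 and to 541 and 487 CPM in Heart2, and of 3 tested 0 passed by limma and 2 were higher at an unadjusted p below 0.05. Ribosomal protein genes took a median of 12.6% of UMIs in members of both libraries, against 10.3% and 9.64%, and the mitochondrial medians were 5.22% and 5.27% against 4.14% and 5.69%. Early response genes, which cell dissociation is known to induce, summed to 15400 CPM in members and 8760 CPM in others of Heart1 and to 2700 and 3600 CPM in Heart2. The part of these other cell types and of early response genes in the differences was not tested beyond leaving out cells with fibroblast RNA.

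Members with and without a Ccr2 UMI both held class II loading genes. In Heart2 the 30 members with one had 1640 CPM of H2-DMa and 1480 CPM of H2-DMb1, and the 38 without had 1410 and 1590 CPM. Folr2 stood at 150 CPM in the former and 379 CPM in the latter, and 7 of 68 members had UMIs of both Ccr2 and Folr2, 25 neither. In Heart1 0 of 12 had both and 6 neither. A missing UMI does not show a missing transcript at these depths, and these groups within the members were not tested.

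Every cell had been sorted for the p16 reporter, and Cdkn2a itself had few UMIs in members. Cdkn2a, which encodes p16 and p19Arf, had 2 UMIs in 2 of 12 members and 39 UMIs in 14 of 25 other macrophages of Heart1, and 13 UMIs in 6 of 68 and 188 in 51 of 142 in Heart2. Its level was 32.4 against 141 CPM and 27.3 against 122 CPM. The difference of -1.97 ± 0.39 did not pass (limma adjusted p = 0.0900), and it was called in 11 of 19 other settings, with adjusted p from 7.83e-06 to 0.326. Some of those settings repeated the main fit. After thinning to 3000 UMIs the shares with a UMI were 8.33% and 4.41% of members against 28% and 23.2% of the others. The exact intervals were 0.211 to 38.5% and 12.1 to 49.4% in Heart1, and 0.919 to 12.4% and 16.6 to 31.1% in Heart2. They cover counting error over cells that share a library, and are not a test of members against others.

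Cdkn1a, which encodes p21, stood at 97.3 against 370 CPM in Heart1 and at 98.6 against 173.5 CPM in Heart2, and did not pass (-1.33 ± 0.35, limma adjusted p = 0.222). It was called in 8 of 19 other settings, with adjusted p from 0.000153 to 0.633. Cdkn2b, which encodes p15, had 0 UMIs in members and 42 in the others, and did not pass (limma adjusted p = 0.561). In Heart2, with 33 of the 42, it was at least 3.41-fold lower with 3 counts as the floor. Of 25 tested genes on the senescence and p53 list 0 passed by limma, with 3 higher and 3 lower at an unadjusted p below 0.05.

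**Figure D5:**
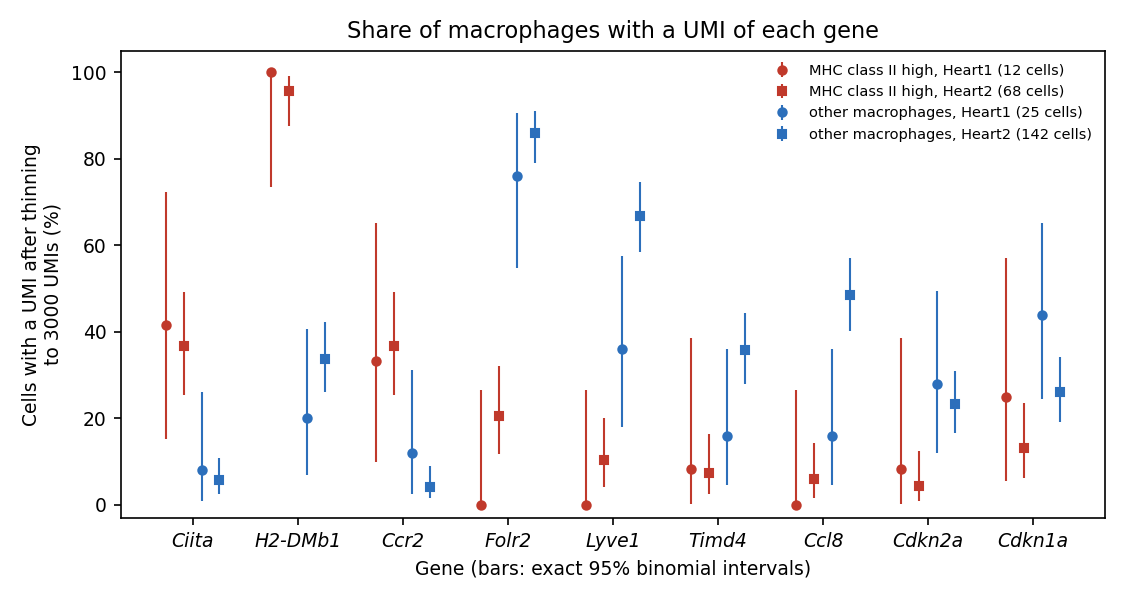
Share of cells with at least 1 UMI after thinning each cell to 3000 UMIs (y axis, %) for 9 genes (x axis), with exact 95% binomial intervals as bars, coloured and marked by group and library. Class II genes and Ccr2 are found in more members, such as Ciita in 41.7% and 36.8% against 8.0% and 5.63%, and Folr2, Lyve1 and Cdkn2a in fewer.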

How the data were processed

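Per the labels' protocols, mCherry-positive heart cells were sorted and made into droplet 3' libraries. Reads had been processed with Cell Ranger 3.0.2 on mm10, per the submitters' processing notes. The values deposited by the authors are natural log values, ln(1 + x), where x is a gene's share of the cell's UMIs times 10000 (15247 genes, 1426 cells), a unit read from the values. All 4459440 values above 0 were whole multiples of 1 UMI within 1e-06, so UMIs were recovered. How cells and genes were filtered is not given in the sources used here. Which sample record each library is could not be told from the cell names. The cells summed to 3304045 UMIs in Heart1 and 10632723 in Heart2.

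UMIs were summed per library and group (67960 and 532816 in members, 279127 and 1555632 in other macrophages) and scaled to CPM without the 4 ranking genes. Genes averaging at least 10 CPM over the 4 sums were fitted with limma 3.58.1 (R 4.3.3) with a mean-variance trend on log2(CPM + 5), with library as a block, because members and others come from the same libraries. The added 5 CPM shrinks differences of weakly expressed genes. It is worth less than 1 UMI in members of Heart1, however. Where those members had 0 UMIs, the fitted difference can therefore be larger than the counts can bound. Fcna differed by -5.01 in Heart1 on this scale, where the floor gives at least 3.2-fold lower. Fibroblasts, used for background shares, were cells with a mean fibroblast value of 1.5 or more that exceeded the macrophage mean. Intervals and floors (3 counts) cover counting error only. Doublets were predicted with scrublet and kept: 2 of 266 and 3 of 1160 cells, 0 of them members. Such few predictions do not show that doublets were absent.

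The members and gene lists were chosen with earlier results of these data known. Named genes are those of the class II and costimulation lists, up to 3 called genes of each other list, the 10 largest called differences in each direction, and a few set markers; other called genes were named after their values were seen. A few genes are not reported here. The fit was tested on simulated sums with known changes in 2 simulations. In the first, with changed genes of any abundance from 50 CPM up, false calls exceeded the nominal rate under scaling to totals, as used here. They were 54 of 235 calls (23%), against 5 of 176 under median ratio scaling. A second, with changed genes of 50 to 500 CPM only, was added after that was seen. There 5 of 157 calls were false under scaling to totals, under the nominal rate, and 28 of 206 under median ratio scaling, above it. Some genes called in the main fit, such as Pf4, lie above 500 CPM. The adjusted p-values of either scaling can therefore be too small.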

Additional observations from a re-analysis of the deposited data

How the results depend on the processing

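Directions held and counts of calls did not. All 39 calls kept their direction in each of the 19 other fitted settings, and H2-DMa and H2-DMb1 were called in all of them. Several of these settings could not have changed a direction. Macrophage thresholds of 1.0 and 2.0 and z-scores within each library repeated the main fit. Leaving out the block or changing the minimum level left each difference as it was. Leaving out cells with much fibroblast RNA and leaving out predicted doublets gave the same fit as each other. Against 9 higher and 30 lower genes, leaving out the replicate block of libraries gave 2 and 0. A pseudocount of 1 CPM gave 16 higher, 20 CPM gave 15, and median ratio scaling gave 15. Testing every gene gave 78 and 173, 60 members 48 and 152, and 100 members 71 and 124. Leaving out cells with much fibroblast RNA, or predicted doublets, gave 19 and 47 each, and leaving out cells with 2 of Zbtb46, Cd209a and Kmo 23 and 56. Weighting cells equally gave 96 and 172, and thinning to 3000 UMIs 47 and 103. Of the alternatives chosen after seeing the data, leaving out any fibroblast UMI before ranking, which takes 80 members from fewer macrophages, gave 101 and 129, any Zbtb46, Cd209a or Kmo UMI 97 and 189, and fibroblast UMIs after ranking 97 and 176. The prior degrees of freedom moved with these counts, from 5.36 to infinite; the cause was not tested.

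By size alone, at least 2-fold in each library, 92 genes were higher (1.18%) and 226 lower (2.9%). They were 32 and 88 with a pseudocount of 20 CPM, 33 and 80 at 50 CPM or more, and 181 and 437 after thinning; 342 were lower with no filter and 146 without any fibroblast UMI. With 1 library left out there is no test, and 236 to 1057 genes were higher and 536 to 1799 lower.

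The named genes that changed sign were all uncalled; the cause was not tested. Cd209a (-0.01) was 0.039 with median ratio scaling, 0.25 with 60 members, 0.22 without cells with 2 of Zbtb46, Cd209a and Kmo, 0.10 after thinning, and 0.25 and 0.26 without fibroblast UMIs before and after ranking. With 60 members Nfya was 0.56, Rfxank -0.56 and Tnfsf9 -1.19. With 100 members Nfya was 0.40, Havcr2 -0.14 and Il15 0.16. With cells weighted equally Il18 was -0.12 and Vsir -0.04. After thinning Il15 was 0.071, Il18 -0.025, Lgals9 0.53 and Vsir -0.005. Without any fibroblast UMI before ranking Cd82 was -0.155, Havcr2 -0.155, Il15 0.091, Il18 -0.002, Lgmn 0.002, Nfya 0.79 and Nfyc 0.028. Without any Zbtb46, Cd209a or Kmo UMI Cd40 was 0.01, Il18 -0.013, Nfya 0.10 and Vsir -0.11. Without fibroblast UMIs after ranking Havcr2 was -0.028 and Nfya 0.043.

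Calls were also lost for Colec12 at 50 CPM or more, with 100 members and without any fibroblast UMI, for Ctla2a and Emp1 at 50 CPM or more, for Lgals1 with 100 members, and for Fcgrt, Lgals1, Stab1 and Timp2 with median ratio scaling. The 12 members of Heart1 held 67960 UMIs, so 1 UMI there is worth over 10 CPM and genes near that level could not be measured in that library.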

Other observations

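Some genes had unlike values in the 2 libraries, and they were picked out after their values were seen. Ear2, an eosinophil-associated ribonuclease, had 32 UMIs in 4 members of Heart2, 15 of them in 1 cell, and 0 in all other macrophages and in members of Heart1. Lgals3 (galectin 3) stood at 438 CPM in members and 4052 CPM in other macrophages of Heart1, against 608 and 481 CPM in Heart2. Gpnmb, a glycoprotein of lipid-laden macrophages, had 0 and 88 UMIs in Heart1 and 7 and 0 in Heart2. Cd163, a haemoglobin scavenger receptor of residents, stood at 389 against 279 CPM in Heart1 and at 81.8 against 543 CPM in Heart2. The differences between libraries were not tested.

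Macrophage genes with more RNA in members that did not pass were Cx3cr1, at 357 against 167 CPM in Heart1 and 556 against 121.5 CPM in Heart2 (1.61 ± 0.32, limma adjusted p = 0.0900), and Fcgr4 (2.31 ± 0.41, adjusted p = 0.0603).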
